A study of Schizosaccharomyces pombe with 5 samples.

Results

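Phosphate uptake and scavenging genes of fission yeast were followed as starved, resting cells returned to growth. Of 4 gene names asked for (pho1, pho84, pho842 and tgp1), 2 named a spot of the array alone, pho842 and tgp1, out of 4797 genes with a value. The gene pho842 encodes a predicted inorganic phosphate transporter and tgp1 a transporter of glycerophosphodiesters, which are a scavenged source of phosphate. Each had 1 spot. The names were chosen with the ratios of these arrays known, so their values are given as a description and carry no test. No spot carried the name pho1, and the spot for pho84 carried that name together with SPBP4G3.01. The RefSeq gene table of assembly ASM294v3 lists SPBP4G3.01 as another name of pho84, so both names stand for 1 gene. Only spots with a single name were counted, so this spot is described beside the other genes but is not counted with them. A spot named nc-pho1 is treated in the same way, because this non-coding RNA overlaps pho1 in that table.

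Phosphate enters a yeast cell through proton-coupled transporters of the plasma membrane, and secreted acid phosphatases free more of it from organic compounds outside. In fission yeast the zinc-finger factor Pho7 activates pho1, pho84 and tgp1 when phosphate is short. In phosphate-rich cells, transcription of a long non-coding RNA upstream of each of these genes (prt for pho1, prt2 for pho84 and nc-tgp1 for tgp1) holds the gene down. Surplus phosphate is stored in the vacuole as polyphosphate, which the vacuolar transporter chaperone (VTC) complex makes.

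The strain was L972, and 5 cDNA arrays with 2 dyes each compared growing cells, labelled with Cy5, with G0 cells, labelled with Cy3. G0 cells had been kept for 48 h at 26 °C in EMM2-N, a minimal medium with no nitrogen source, in which they stop dividing. The growing cells were taken 1, 2, 3.5 or 6 h after 4 volumes of fresh EMM2 (complete minimal medium) were added, or were dividing logarithmically in EMM2 and had never been starved. Each condition had 1 array, and the submitters state that no experiment was repeated. Fresh medium brought nitrogen together with every other nutrient, and the phosphate content of the medium at G0 is not given, so the effects of nitrogen, of phosphate and of dilution cannot be told apart. Where a sample's description gives 2 h and its title and source give another state (the last 3 arrays), title and source were used.

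Values are log2 ratios of growing over G0 cells, so that 1 stands for a 2-fold higher and -1 for a 2-fold lower level than in G0. Base 2 is an assumption, since no source used here gives it. An array gave between 4765 and 4781 genes a value, and gene medians lay between 0.00 and 0.14. The state of the samples was checked with marker genes. Of 9 genes of starvation and mating, between 6 and 8 were at least 2-fold below G0 on each array, and fnx1 was above it at 1 h (1.83) and 2 h (1.92). Of 9 growth genes, 7 were at least 2-fold above G0 on each array and 0 below. Among all genes, between 14.6% and 22.6% were 2-fold below G0 on an array and between 15.6% and 23.4% above. Error could be measured only between spots within an array. The 3 genes cdc2, nda3 and nuc1, with 16 spots each, gave a pooled SD of 0.22 to 0.29. The spot SD used below is a larger one, 0.38 to 0.47, over 12 positions that have no name in any of the 16 blocks. Whether such a position holds the same DNA in each block was not stated, so this SD may not be a replicate error. Both SDs leave out the spread between cultures and between arrays. The columns come in 2 sets, with 9 decimals at 1 h and 2 h and 3 decimals at 3.5 h, 6 h and in vegetative cells, and it is not given whether the same G0 RNA served both. A difference across the sets can therefore not be told apart from a difference between G0 preparations.

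The phosphate transporter gene pho842 stood far above G0 for 2 h and then below it. Its log2 ratio was 3.98 at 1 h and 4.22 at 2 h, then -1.32 at 3.5 h, -1.07 at 6 h and finally -1.10 under vegetative growth. The 2 early arrays were thus high and the other 3 low, with no value in between. In linear terms the gene was 15.8-fold above G0 at 1 h, 18.6-fold above it at 2 h, and 2.50-fold, 2.09-fold and 2.15-fold below it on the later arrays. Ranked among the 4708 genes measured on all 5 arrays, it lay above 99.5% of them at 1 h and 99.7% at 2 h, but above only 12.1%, 13.5% and 12.9% on the later arrays in turn. The difference between 1 h and 2 h (0.23) was smaller than the SD of a difference between spots (0.62), and so were those between 3.5 h and 6 h (0.26) and between 6 h and vegetative cells (-0.04). The step from 2 h to 3.5 h therefore holds nearly all of the movement, and its size is 9.37 times the spot SD of a difference. That SD leaves out the spread between cultures and arrays, and the step crosses the sets of columns. Only 1 of 4767 genes had a lower value for that step.

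The glycerophosphodiester transporter gene tgp1 was above G0 at 1 h and below it from 3.5 h on. Its log2 ratio was 1.99 at 1 h and 0.14 at 2 h, then -2.62 at 3.5 h, -3.18 at 6 h and finally -3.27 under vegetative growth. The 1 h array was high, the 2 h array lay within the spot SD (0.43) of G0, or just past it with blocks centred (0.48), and the other 3 were low. These ratios correspond to 3.97-fold above G0 at 1 h and to 6.16-fold, 9.04-fold and 9.68-fold below it on the later arrays in turn. The gene lay above 89.2% of all genes at 1 h, above 55.4% at 2 h and above 1.06% in vegetative cells. Unlike pho842 it differed within the first set of columns, by -1.85 between 1 h and 2 h, which is 3.00 times the spot SD of a difference. The step from 2 h to 3.5 h was -2.76, the 29th lowest of 4767. The later steps, -0.55 to 6 h and -0.10 to vegetative cells, were within the spot SD of a difference (0.62 and 0.61).

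**Figure D1:**
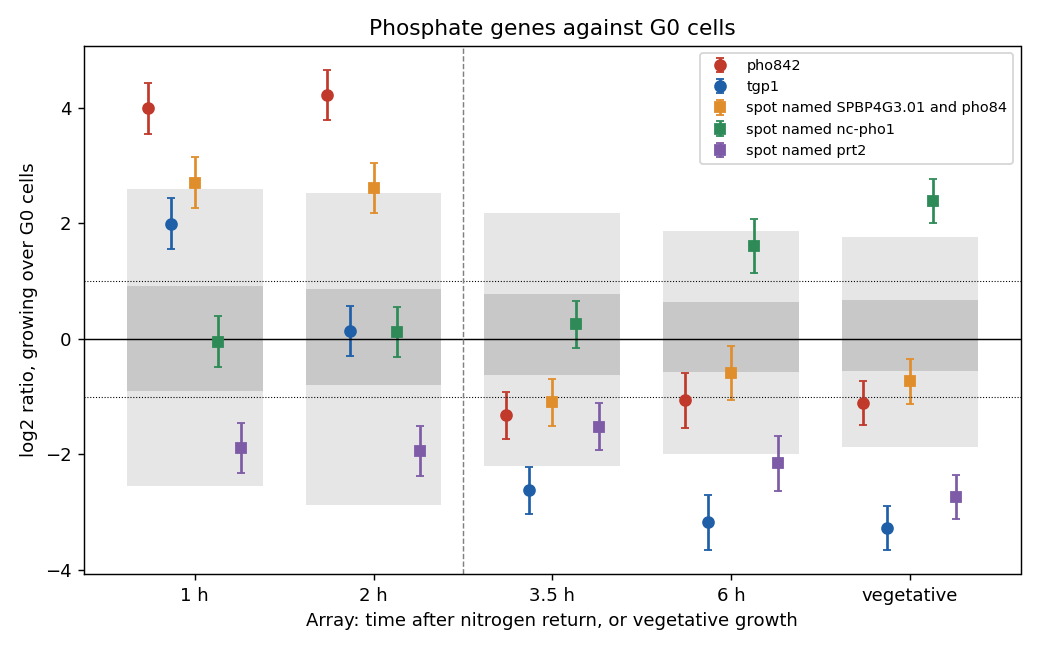
Log2 ratio of growing over G0 cells (vertical axis) on each of the 5 arrays (horizontal axis). Circles are pho842 and tgp1, and squares are 3 further spots that are not counted with them. Bars are 1 spot SD of that array, taken over the 12 unnamed positions. Grey boxes span the middle 50% (dark) and 90% (light) of all genes. Dotted lines mark 2-fold and the dashed line parts the 2 sets of columns. The transporter gene pho842 lies near 4 at 1 h and 2 h and near -1 afterwards, and tgp1 goes from 1.99 to -3.27.

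By the 2-fold rule of size, both genes were higher than G0 at 1 h, where 23.4% of all genes were higher and 22.6% lower. At 2 h only pho842 was higher, with 22.8% of all genes higher and 21.3% lower. Both were 2-fold lower at 3.5 h (16.7% of all genes lower, 18.9% higher), after 6 h (14.9% lower, 15.6% higher) and in vegetative cells (14.6% lower, 15.8% higher). These shares are large, and the names were chosen on these values, so the counts are read no further. Fewer genes shared the sequence over the arrays. It is built from the same values on which the names were chosen, so its rarity is a description and not evidence. The first form leaves out 2 h, where tgp1 stood at 0.14. Of 4708 genes, 11 (0.234%) were 2-fold higher at 1 h and 2-fold lower on all 3 later arrays, and pho842 and tgp1 are among them. With 2 h also at least 2-fold higher, 7 genes (0.149%) met it, pho842 among them. In a wider form chosen after the values were seen, 2-fold higher at both early times and below 0 on the later arrays, 31 genes (0.658%) met it, among them pho842, pho841, vtc2 and vtc4. Of the 915 genes (19.4%) that were 2-fold higher on both early arrays, 872 were still above 0 at 3.5 h and 631 still 2-fold higher.

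Between arrays, tgp1 was at least 2-fold lower at 2 h than at 1 h, as 7.49% of genes were, and pho842 was not. Both genes were 2-fold lower at 3.5 h than at 2 h, against 10.4% of genes. From 3.5 h to 6 h and from 6 h to vegetative growth neither passed 2-fold, and 2.85% and 2.54% of genes were 2-fold lower there. Against 2 h, vegetative cells had pho842 lower by a log2 difference of -5.32 and tgp1 by -3.41 (18.1% of genes were 2-fold lower). The ratio of tgp1 lay below that of pho842 on every array, by log2 differences of -2.00, -4.08, -1.30, -2.11 and -2.17 in array order. These differences are of ratios to G0 and do not compare the levels of both transcripts.

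The spot named SPBP4G3.01 and pho84, whose gene encodes a plasma membrane phosphate transporter, followed pho842. Its log2 ratio was 2.70 at 1 h and 2.62 at 2 h, then -1.10 at 3.5 h, -0.59 at 6 h and finally -0.74 under vegetative growth. The early arrays were again high and the later arrays low, and only the 3.5 h value was 2-fold below G0. The step from 2 h to 3.5 h, again across the sets of columns, was -3.71, or 6.28 times the spot SD of a difference. Its early ratios lay below those of pho842 by 1.29 at 1 h and 1.60 at 2 h, against a spot SD of 0.62 and 0.61 for such a difference, while the later differences (-0.23, -0.48 and -0.37) were within it.

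The spot named nc-pho1 had another course. Its log2 ratio was -0.05 at 1 h and 0.12 at 2 h, then 0.25 at 3.5 h, 1.60 at 6 h and finally 2.38 under vegetative growth. The first 3 arrays were level with G0 within the spot SD, and the last 2 were high, above 92.6% and 98.8% of all genes. In RefSeq nc-pho1 shares 1413 bases with pho1, the gene of the secreted acid phosphatase. It is 1 of only 3 spotted names that RefSeq now lists as a long non-coding RNA, against 4815 spots of protein-coding genes. Whether the spotted DNA was made from nc-pho1, from pho1 or from both was not stated in any source used here, so this course cannot be assigned to either transcript. A spot named prt2, the non-coding RNA that shares 1870 bases with pho84, was below G0 on all 5 arrays, at -1.89, -1.94, -1.52, -2.15 and -2.74 in array order. The same doubt holds for its name. It did not show the step from 2 h to 3.5 h, which was 0.42 there against a spot SD of 0.59.

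On chromosome II the RefSeq order is prt2, pho84, nc-pho1 and pho1, so the spots with these names come from neighbouring and overlapping stretches of DNA, and their courses differed. Overlaps also limit the named genes. The annotation has long non-coding RNAs that share 1355 bases (SPNCRNA.4681) and 77 bases (nc-tgp1) with tgp1, and 1694 and 298 bases (SPNCRNA.3963 and SPNCRNA.3962) with pho842. None of these has a spot, and a spot may take signal from either transcript. The nearest spotted genes did not follow them. Beside tgp1, SPBC1271.10c, which shares 67 bases with it, had a log2 ratio of 1.04 at 1 h and 0.33 at 3.5 h, and SPBC1271.08c had -2.69 and -0.21. Beside pho842 on chromosome I, ayr1 stood at -2.72 and -3.39 and SPAC23D3.13c at -0.22 and 0.17 at these times.

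On the array itself, pho842 and the pho84 spot lay in the same row of block 11 and the VTC gene vtc4 in the next row. The other 31 named spots of these rows had a median of 0.61 at 1 h, 0.52 at 2 h and 0.33 at 3.5 h, against 0.06, 0.00 and 0.14 over all genes. Of these 31, 10 were 2-fold higher at 1 h and 9 at 2 h, and 2 were 2-fold lower at 3.5 h (23.4%, 22.8% and 16.7% of all genes). With the block median taken off, pho842 stood at 3.94 at 1 h, 4.24 at 2 h and -1.47 at 3.5 h. Relative to the block the course was about as large as in the values as deposited. Taking off a block median does not remove a shift of single rows, and an effect of position was not tested. The gene tgp1 lay in block 1, where the same correction gave 1.93, 0.48 and -2.42.

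Other transporter genes of the pathway were early and high as well. The gene pho841, named as a further member of the phosphate transporter family, had log2 ratios of 2.89 at 1 h and 1.97 at 2 h, then -0.93 at 3.5 h, -0.62 at 6 h and finally -1.01 under vegetative growth. The related name pho843 stood at 1.27, 1.45, 0.29, 0.38 and 0.55 in array order. It was thus 2-fold above G0 on the early arrays, and the later ratios stayed above 0. Of the 4 spotted genes listed for phosphate transport and phosphodiester breakdown, 2 passed 2-fold upward and 1 downward on each early array, with a median of 0.60 and 0.63 against 0.06 and 0.00 over all genes. On the later arrays 0 passed it upward, and 1, 1 and 2 downward. Of all genes, between 15.6% and 23.4% passed it upward on an array and between 14.6% and 22.6% downward. The lower gene throughout was pgc1, named after a phospholipase C of budding yeast, at -1.72, -2.96, -3.77, -2.43 and -1.34. The gene gde1, named after a budding yeast glycerophosphodiesterase, lay between -0.86 and -0.06.

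The measured genes of the polyphosphate-making VTC complex, vtc4 and vtc2, shared the early high ratios. The listed genes vtc1 and vtc5 were not the single name of any spot and are not covered. The gene vtc4, which encodes the catalytic subunit, stood at 2.70 at 1 h and 1.74 at 2 h, then -1.27 at 3.5 h, -0.92 at 6 h and finally -0.81 under vegetative growth. The gene vtc2, for another subunit, stood at 2.45, 2.05, -0.27, -0.17 and -0.51 in the same order. Both were high on the early arrays and below 0 on the later ones, with only vtc4 at 3.5 h past 2-fold in the values as deposited. Their steps from 2 h to 3.5 h were -3.01 and -2.32, the 19th and 49th lowest of 4767 genes. The exopolyphosphatase gene ppx1 stayed between -0.35 and -0.18 on all arrays. Of the 3 spotted polyphosphate genes, 2 were therefore 2-fold higher at 1 h and at 2 h (23.4% and 22.8% of all genes). On the later arrays 0 were (18.9%, 15.6% and 15.8% of all genes in turn).

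**Figure D2:**
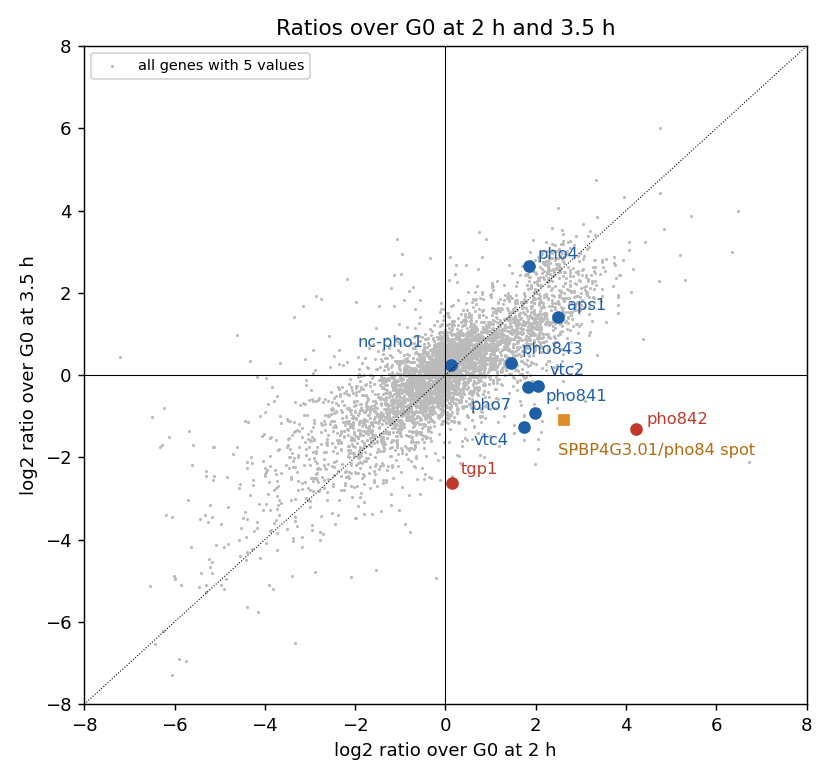
Log2 ratio over G0 at 2 h (horizontal axis) against that at 3.5 h (vertical axis) for the 4708 genes with all 5 values (grey), with some phosphate genes and the pho84 spot marked (others, such as pgc1, are not). The dotted line marks equal ratios. The genes pho842, pho841, vtc4, vtc2 and pho7 and the pho84 spot lie to the right of 0 at 2 h and below 0 at 3.5 h, tgp1 lies near 0 at 2 h and at -2.62 at 3.5 h, and pho4 lies above the line.

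The phosphatases did not move as a group. The gene pho4, which encodes an acid phosphatase repressed by thiamine, had log2 ratios of 0.86 at 1 h and 1.85 at 2 h, then 2.65 at 3.5 h, 4.01 at 6 h and finally 2.67 under vegetative growth. It was thus lowest on the early arrays, where pho842 was high. The gene pho8, named after the vacuolar alkaline phosphatase of budding yeast, stood at 0.83 at 1 h and -1.88 at 2 h, a difference of -2.72 within the first set of columns, and then at -1.45, -0.81 and -0.79. The 4-nitrophenylphosphatase gene pho2 was 2-fold below G0 at 1 h (-1.76) and 2 h (-1.30) and lay between -0.55 and 0.47 afterwards. The medians of these 3 genes were 0.83, -1.30, -0.10, 0.47 and -0.55 in array order.

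Among regulators, the gene of the activator Pho7 was also 2-fold above G0 on both early arrays. It stood at 1.78 at 1 h and 1.84 at 2 h and then at -0.28, -0.09 and 0.15, the later values being within the spot SD of G0 as deposited, but at 3.5 h not with arrays centred (-0.42) or blocks centred (-0.47) against an SD of 0.40. Its step from 2 h to 3.5 h was -2.11, the 71st lowest of 4767. The kinase gene csk1, whose loss is known to raise pho1, was 2-fold below G0 at 1 h (-1.29) and 2 h (-2.04) and closer to G0 afterwards (-0.98, -0.43 and -0.29). Inositol pyrophosphates are signals of phosphate status. The gene of their kinase, asp1, stayed between -0.80 and 0.04, and aps1, which encodes a pyrophosphatase that acts on them, was 2-fold above G0 on all arrays (1.86, 2.48, 1.42, 1.73 and 1.27). The inositol pyrophosphate phosphatase gene siw14 was past 2-fold at 3.5 h only (-1.17). The gene pqr1, for a ubiquitin ligase that limits phosphate uptake, stood at 0.36 at 1 h and -0.33 at 2 h and was 2-fold below G0 on the later arrays (-1.52, -1.75 and -1.98). Of these 6 signalling genes, 2 passed 2-fold upward on each early array and 1 on each later one, 2 passed it downward at 3.5 h and 1 on each other array, and their medians lay between -0.67 and 0.20. The shares of all genes were between 15.6% and 23.4% upward on an array and between 14.6% and 22.6% downward.

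**Figure D3:**
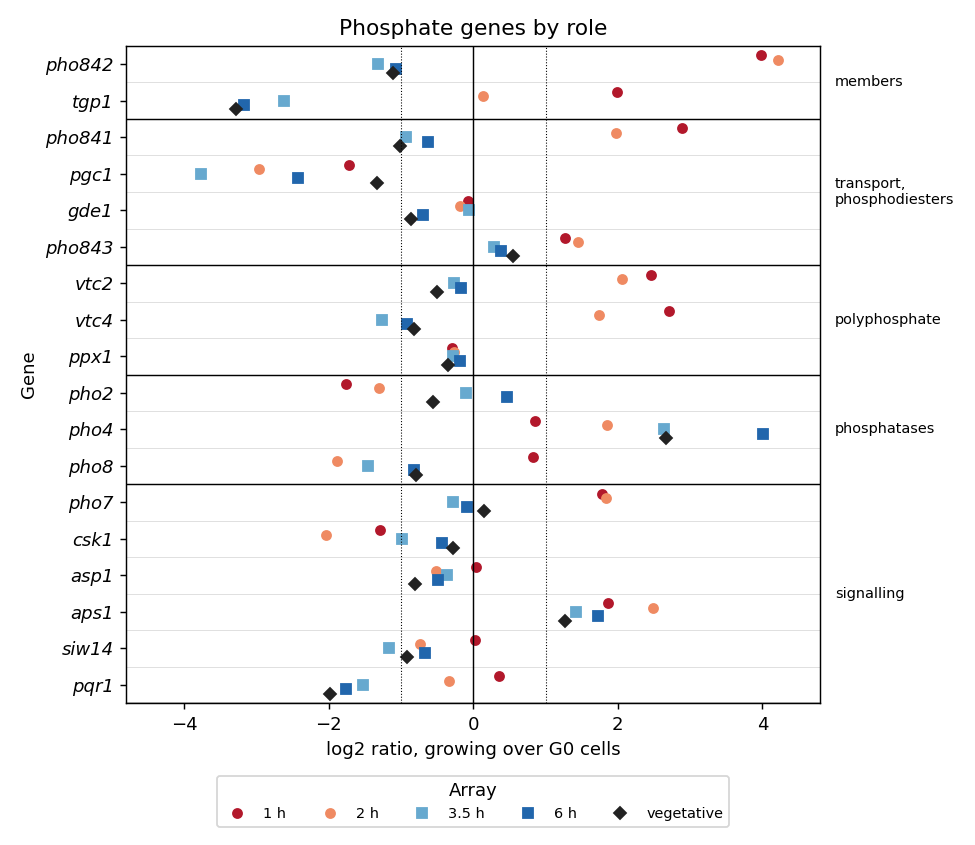
Log2 ratio over G0 (horizontal axis) of each spotted phosphate gene (vertical axis), grouped by role, with 1 marker per array and dotted lines at 2-fold. Early arrays (circles) lie to the right of the later ones for pho842, tgp1, pho841, pho843, vtc2, vtc4, pho7, aps1 and pqr1, and to the left of them for pho4, pho2 and csk1.

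Factors of transcription termination and RNA decay, many of which are known to act on the non-coding RNAs of the phosphate genes, showed no common course. Of 18 spotted, between 1 and 3 passed 2-fold upward and between 1 and 3 downward on an array, and the medians lay between -0.11 and 0.44. Over all genes, between 15.6% and 23.4% passed it upward and between 14.6% and 22.6% downward, so the counts are read no further. The kinase gene mcs6 was the lowest of them (-3.56 at 1 h and -1.91 in vegetative cells), and the exosome gene rrp6 was high early (1.72 at 1 h and 0.05 in vegetative cells). The RNA elimination factor gene mmi1 passed 2-fold at 6 h only (-1.48), as did red1 (-1.11). Among 7 chromatin factors the histone acetyltransferase gene gcn5 was 2-fold above G0 on all arrays (from 1.15 at 6 h to 2.06 at 2 h) and the medians lay between -0.13 and 0.31.

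Genes for the uptake of other scarce nutrients are given for comparison, with no test of the difference. Iron uptake genes had their lowest median at 2 h (0.21, 0 of 9 at least 2-fold higher) and their highest at 6 h (1.40, 5 of 9 higher). Copper and zinc transport genes had medians of 0.32 at 1 h, 0.38 at 2 h and 0.94 at 3.5 h, with 2 of 5, 2 of 6 and 3 of 6 higher. Thiamine and vitamin B6 genes had medians of 0.13 at 1 h and 1.50 at 6 h, with 2 and 4 of 6 higher. For scale, the share of all genes that was 2-fold higher ranged from 15.6% (6 h array) to 23.4% (1 h array). The median over all genes stayed between 0.00 and 0.14. These lists are short, so their counts are read no further.

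Genes most like each course over the 5 arrays were sought by the root mean square difference of their log2 ratios, among 4708 genes with all values. For pho842 the nearest was cnp3, a centromere protein gene (difference 0.84), followed by ymc1 (1.04) and sur2 (1.08), and pho841 was the 5th nearest (1.15), vtc4 the 11th and vtc2 the 18th. The median gene differed from pho842 by 2.86. For tgp1 the nearest were thi7 (0.78), the RNA polymerase III factor gene bdp1 (0.87) and SPCC74.04 (0.89), and pho842 was far off (2.51). For the pho84 spot the nearest gene of all was pho841 (0.33), followed by sur2 (0.37), cnp3 (0.40), vtc4 (0.43) and vtc2 (0.51), against 2.00 for the median gene. The likeness rests on 5 values that share G0 as reference. Ranked by Pearson correlation instead, 0 of the 3 nearest genes of pho842 and 0 of those of tgp1 were kept. By that measure pho841, vtc4 and vtc2 were 102nd, 116th and 47th from pho842, and 50th, 49th and 28th from the pho84 spot. The gene nearest to the pho84 spot was then pho842, which was only 50th by root mean square difference (0.96).

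**Figure D4:**
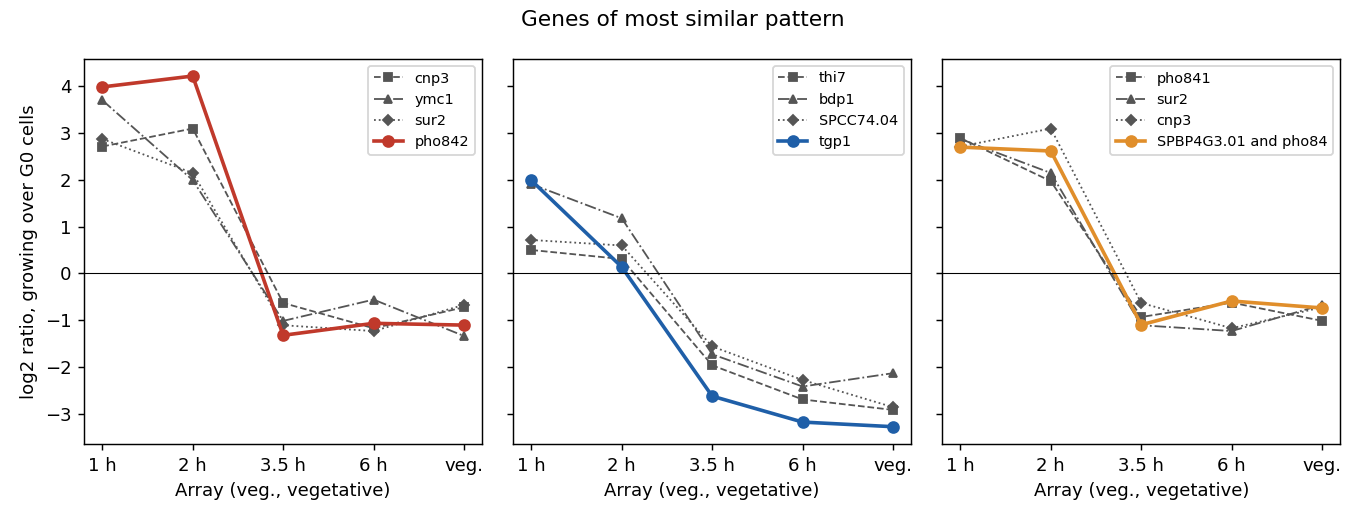
Log2 ratio over G0 (vertical axis) on the 5 arrays (horizontal axis) for pho842, tgp1 and the pho84 spot (coloured) and the 3 genes of smallest root mean square difference from each (grey). The lines near pho842 and the pho84 spot are high at 1 h and 2 h and below 0 at 3.5 h, and those near tgp1 end between -2.13 and -2.92 in vegetative cells.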

How the data were processed

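RNA was measured on 2-colour cDNA arrays. The authors deposited a log ratio for each spot, read here as the log2 of Cy5 over Cy3 per the labels' dyes. How images were read, background removed or ratios normalized was not stated, and spot intensities were not used. Of 5188 rows, 4 rows of averages were left out. The 5184 spots lie in 16 blocks of 324, and platform annotation gave 1 name to 4865, several to 22 and none to 297. Gene IDs of 4839 matched RefSeq, whose coordinates are not printed because the arrays name no build. Spots of 1 gene were averaged (Python 3.11.15, pandas 2.3.3, numpy 2.4.6, matplotlib 3.10.9).

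With 1 array per condition there is no test, and a change is at least 2-fold by size. Genes and lists were chosen with earlier results of these data known. Named genes are pho842 and tgp1, the 3 nearest by pattern, the nearest spotted neighbours, and listed genes past 2-fold or central to the pathway. Listed symbols that name another function in fission yeast, and identifiers with no annotated role, were left out, and pho843 was added when the annotation was read. The spots named nc-pho1, prt2 and SPBP4G3.01 with pho84 were added after their annotation was seen. The likeness step was tried on simulated data, with each array shuffled separately and copies of 1 known course planted. Shuffling removes the links between arrays, so this trial does not show how reliable the nearest genes are here. No sequences were used here.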

Additional observations from a re-analysis of the deposited data

How the results depend on the processing

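All 10 ratios of pho842 and tgp1 kept their sign and their side of 2-fold with arrays centred on their medians, with blocks centred, and with arrays scaled to the same median absolute deviation. Scaling moved 4 ratios by more than the spot SD, pho842 to 3.21 at 1 h and 3.72 at 2 h and tgp1 to -3.88 at 6 h and -3.93 in vegetative cells, and the tgp1 difference from 3.5 h to 6 h to -1.18, past 2-fold; the cause was not tested. At a 3-fold limit, 1 gene (tgp1) in place of 2 was lower at 3.5 h, 6 h and in vegetative cells, by the construction of the limit. Natural logarithms would leave the counts of these 2 genes at 2-fold the same; other counts were not recomputed. The sign of the small pho7 ratio in vegetative cells turned with blocks centred (-0.04). Near the limit, vtc4 passed 2-fold at 6 h with scaled arrays (-1.13) and in vegetative cells with blocks centred (-1.02), and pho841 at 3.5 h with arrays (-1.07) or blocks (-1.23) centred. Each gene had 1 spot, so no other way of joining spots could be tried. No paired analysis was possible because each condition had 1 array. Spot intensities were not used here, so a limit set by dim spots cannot be stated, and the number of arrays limits the precision.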
